A study of Mus musculus with 2 samples.

Results

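The miR-17-92 cluster is a run of 6 microRNA (miRNA) genes, Mir17, Mir18, Mir19a, Mir20a, Mir19b-1 and Mir92-1, that lie in the same transcript on mouse chromosome 14. They were taken by gene symbol from the 1973 miRNA genes of the deposited tables, and all 6 were found there. Levels were measured by small RNA sequencing, in which RNA shorter than 30 bases is sequenced, in neural tube that was dissected on postnatal day 0 from mice of strain B6NCrl. The data form 1 group of 2 libraries, each from a single neural tube, of pup 1 and pup 2 of the same dam. The labels give no genotype or treatment, and no sex was recorded. With 1 group there was no comparison between conditions, and what can be described is this tissue and how far littermates differed.

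A miRNA gene is transcribed as part of a longer RNA, from which a hairpin is released and then cut to mature miRNAs of about the length of a read. The 5p and the 3p mature miRNA come from the left and the right arm of the hairpin. A mature miRNA finds its target messages mainly through its seed, bases 2 to 8 from the 5′ end. The miR-17-92 transcript, Mir17hg, is activated by Myc and is known for keeping cells dividing and alive, among them neural progenitors. Its miR-17, miR-18, miR-19 and miR-92 miRNAs lower inhibitors of growth and inducers of cell death, of which Bcl2l11 and Cdkn1a are well-known targets. All 6 hairpins are cut from the same RNA, so the cluster is a case where transcription is shared and the counts of the genes can still differ.

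The mature sequences are shown first because the groups of members that follow are defined by them. They are RefSeq sequences (GRCm38.p6, the same build as mm10), found for 6 of 6 members, written 5′ to 3′ with the seed in capitals.
miR-17-5p: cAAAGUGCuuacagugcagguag
miR-20a-5p: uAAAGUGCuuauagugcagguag
miR-18a-5p: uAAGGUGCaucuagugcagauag
miR-19a-3p: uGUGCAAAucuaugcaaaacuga
miR-19b-3p: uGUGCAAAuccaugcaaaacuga
miR-92a-3p: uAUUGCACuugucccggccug
The arms listed are the ones usually taken as the guide of each hairpin. Mir17 and Mir20a share the seed AAAGUGC, and miR-17-5p differs from miR-20a-5p at 2 positions, C1U and C12U, counted from the 5′ end of miR-17-5p. The seed of miR-18a-5p, AAGGUGC, differs from that of miR-17-5p by A4G. Mir19a and Mir19b-1 share the seed GUGCAAA, and their 3p miRNAs differ at 1 position, U11C. Mir92-1 has the seed AUUGCAC, so the cluster holds 4 guide seeds. The other arms listed in RefSeq are:
miR-17-3p: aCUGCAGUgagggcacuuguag
miR-18a-3p: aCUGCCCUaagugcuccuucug
miR-20a-3p: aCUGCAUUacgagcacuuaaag
miR-19b-1-5p: aGUUUUGCagguuugcauccagc
miR-92a-1-5p: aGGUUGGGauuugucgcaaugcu
The deposited counts are per hairpin gene, so the arms of a hairpin were not told apart.

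In the GENCODE annotation Mir17hg spans 3849 bases on the plus strand (chr14:115042879-115046727, mm10) and has 2 exons. The 6 miRNA genes lie within exon 2, packed into 836 bases. In transcript order they are Mir17 (chr14:115043671-115043754), Mir18 (chr14:115043851-115043946), Mir19a (chr14:115044000-115044081), Mir20a (chr14:115044157-115044263), Mir19b-1 (chr14:115044305-115044391) and Mir92-1 (chr14:115044427-115044506). The gaps between successive genes ran from 35 to 96 bases. The opposite-strand count was 0 at each of the 6 genes in both pups.

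The libraries held 6362751 reads in pup 1 and 7212044 in pup 2, of which 3216453 and 3660693 fell on miRNA genes in their own orientation. Levels are given in CPM, counts per 1000000 of these own-strand counts, and were not divided by gene length because a read covers a whole mature miRNA. A single count is worth 0.311 CPM in pup 1 but 0.273 CPM in pup 2. Intervals are exact 95% intervals and cover counting error only, since the reads carry no stated molecular identifiers. Neural miRNA genes listed as markers of the tissue summed to 22612 CPM in pup 1 and 26097 CPM in pup 2. Of 11 measured genes 8 were detected (at least 10 counts in both pups). Most of the sum was Mir137 (16076 CPM ± 1484). Mir128-1 (8872 counts in pup 1 and 12788 in pup 2), Mir153 (5743 and 6921) and Mir338 (3134 and 4109) were also well counted. So were Mir219a-2 (2621 and 3786), Mir128-2 (2548 and 3454) and Mir9-3 (1447 and 1715). Genes of the list with few counts included Mir124a-1 (20 in pup 1 and 50 in pup 2), Mir124a-3 (7 and 10) and Mir9-2 (3 and 7). Genes marking other cells that the dissection could hold were also present: endothelial Mir126a at 26007 to 27838 CPM, 5 mesenchyme genes summing to 7447 and 7852 CPM, 2 immune genes to 362 and 423 CPM, and 2 erythroid genes to 128 and 152 CPM. Striated muscle genes summed to 70.6 and 105 CPM, mostly Mir206 (85.6 CPM ± 23.0), the only one detected of 5, while 3 had 0 counts in both pups. Hepatocyte Mir122 stood at 104 CPM in pup 1 and 64.2 CPM in pup 2. Reads that fitted several places are in none of these marker counts, and how far this lowered them was not tested. A low or 0 count of a marker gene therefore does not show that its miRNA or its cells were scarce. The part of these cells in the miR-17-92 levels was not tested, and in bulk tissue more cells of a type and more RNA per cell cannot be told apart.

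The cluster was expressed in both pups, and the gene counts of its members differed by up to 862-fold in mean CPM. Among the 4 members whose mature arms no other hairpin holds, the span was 172-fold. Together the 6 genes had 28705 counts in pup 1 and 33646 in pup 2, or 8924 and 9191 CPM, a mean of 9058 CPM ± 189 (SD, n = 2). That is 0.906% ± 0.019 of the own-strand counts. The miR-17 and miR-18 genes held nearly all of these counts, from which reads that fitted several places are left out. Mir17, Mir20a and Mir18 summed to 8670 CPM ± 153, and the pair of miR-19 genes to 35.3 CPM ± 0.68.

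Mir17, the gene at the 5′ end of the cluster and the namesake of its main seed group, had 15757 counts in pup 1 and 19177 in pup 2. These are 4899 CPM (95% interval 4823 to 4976) and 5239 CPM (5165 to 5313), a mean of 5069 CPM ± 240 (SD, n = 2). It was the highest member in both pups and ranked 31 among all measured miRNA genes. Mir20a, the fourth gene, whose guide shares the miR-17 seed, had 6315 and 7727 counts, a mean of 2037 CPM ± 104 and rank 65. Mir18, the second gene, had 5465 and 5229 counts, 1699 CPM in pup 1 and 1428 CPM in pup 2, a mean of 1564 CPM ± 191 and rank 79. It was the only one of these 3 genes with fewer counts in the larger library.

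Mir92-1, the last gene of the cluster and the carrier of the miR-92 seed, had 1056 counts in pup 1 and 1382 in pup 2. Its level was 328 CPM (309 to 349) and 378 CPM (358 to 398), a mean of 353 CPM ± 34.8 (SD, n = 2) and rank 141. The miR-19 genes were lowest. Mir19a had 97 and 105 counts, 30.2 CPM (24.5 to 36.8) and 28.7 CPM (23.5 to 34.7), with a mean of 29.4 CPM ± 1.04 and rank 263. Mir19b-1 had 15 and 26 counts, 4.66 CPM (2.61 to 7.69) and 7.10 CPM (4.64 to 10.4), with a mean of 5.88 CPM ± 1.72 and rank 317. All 6 members passed the minimum of 10 counts in both pups, Mir19b-1 by 5 counts in pup 1. Level did not follow position: the low genes Mir19a and Mir19b-1 flank Mir20a, the second most abundant. These levels leave out reads that fitted several places, a limit for Mir19b-1 and Mir92-1 that is described below.

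**Figure D1:**
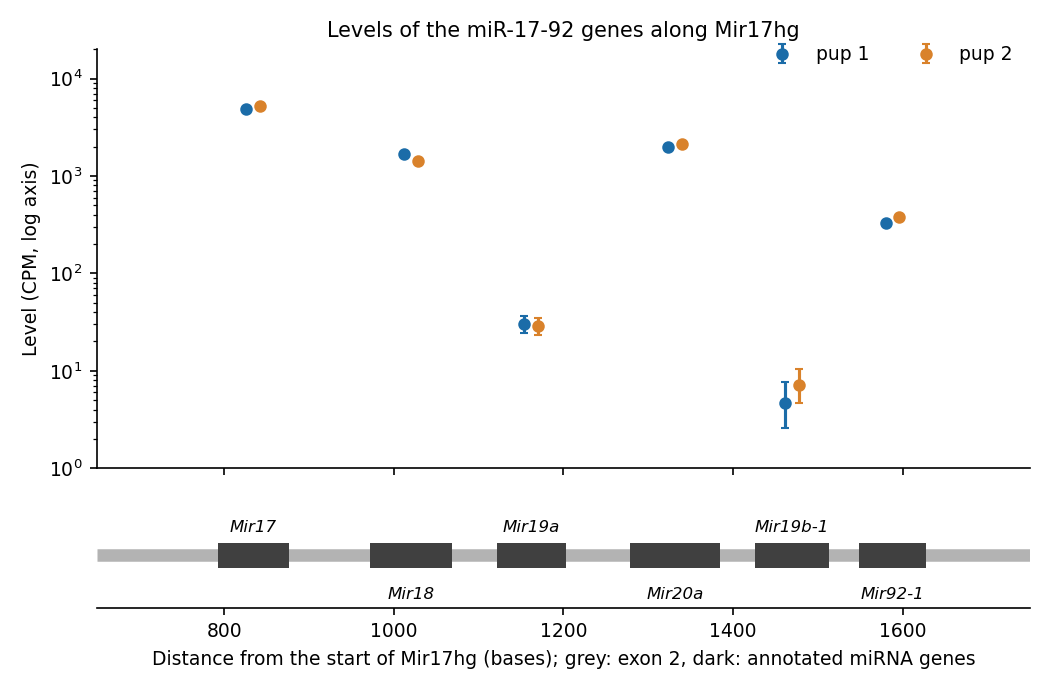
Own-strand level of each miR-17-92 gene in CPM (log axis) against its distance in bases from the start of Mir17hg, with 1 point per pup and exact 95% counting intervals; the boxes below are the annotated miRNA genes in exon 2, to scale. Mir17 stands near 5069 CPM, Mir19a near 29.4 CPM and Mir19b-1 near 5.88 CPM, although all 6 lie within 836 bases. Reads that fitted several places are left out, a limit for Mir19b-1 and Mir92-1.

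The order of the levels, Mir17, Mir20a, Mir18, Mir92-1, Mir19a, Mir19b-1, was the same in both pups. Each of the 15 pairs of members was compared by the difference in mean log2(CPM + 1) against a limit. The limit was the normal 95% bound of the SD between the pups, pooled over the detected genes within 4 classes of abundance. These classes are broad: that of Mir17, Mir20a and Mir18 ran from 1204 to 180672 CPM. All 15 pairs lay further apart than their limit. This rule also separates 92.0% of all pairs of detected genes, so the count of 15 does not set the members apart from other genes. What it shows is that no neighbours in the order were within the spread between the pups.

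Among the 3 abundant genes the folds were small. Mir17 lay 2.50-fold above Mir20a in pup 1 (95% interval 2.42 to 2.57) and 2.48-fold in pup 2 (2.42 to 2.55), so their ratio was nearly equal in the pups. Mir20a lay 1.16-fold above Mir18 in pup 1 (1.11 to 1.20) and 1.48-fold in pup 2 (1.43 to 1.53), and these intervals do not overlap. The log2 difference of Mir20a over Mir18 was 0.39 against a limit of 0.32. It fell inside the limit in 4 alternatives: with a single SD pooled over all detected genes (limit 0.49), with edgeR's common dispersion plus counting error (limit 0.40), per base of annotated gene (difference 0.23, limit 0.34) and from pup 1 alone, without pup 2 (difference 0.21). The order of Mir20a and Mir18 is therefore the least firm in the cluster.

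The steps further down were larger. Mir18 lay 5.18-fold above Mir92-1 in pup 1 (95% interval 4.84 to 5.53) and 3.78-fold in pup 2 (3.57 to 4.02). Mir92-1 lay 10.9-fold above Mir19a in pup 1 (8.84 to 13.5) and 13.2-fold in pup 2 (10.8 to 16.2). Mir19a lay 6.47-fold above Mir19b-1 in pup 1 (3.73 to 12) and 4.04-fold in pup 2 (2.61 to 6.47), intervals that overlap and are wide because Mir19b-1 had few counts. From end to end, Mir17 lay 1050-fold above Mir19b-1 in pup 1 (637 to 1877) and 738-fold in pup 2 (503 to 1129).

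The composition of the cluster can also be given as shares of its own counts, which do not depend on how the libraries are scaled. They leave out reads that fitted several places, a limit for Mir19b-1 and Mir92-1 that is described below. Mir17 held 54.9% in pup 1 (95% interval 54.3 to 55.5) and 57.0% in pup 2 (56.5 to 57.5). Mir20a held 22% (21.5 to 22.5) and 23.0% (22.5 to 23.4). Mir18 held 19.0% in pup 1 (18.6 to 19.5) and 15.5% in pup 2 (15.2 to 15.9), the widest difference of the 6 genes in percentage points. Mir92-1 held 3.68% (3.46 to 3.90) and 4.11% (3.90 to 4.33). The remaining counts were those of Mir19a, 0.338% and 0.312%, and Mir19b-1, 0.0523% and 0.0773%. Counting intervals of the pups did not overlap for Mir17, Mir18 and, narrowly (22.48 against 22.52%), Mir20a, and they overlapped for the other members.

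**Figure D2:**
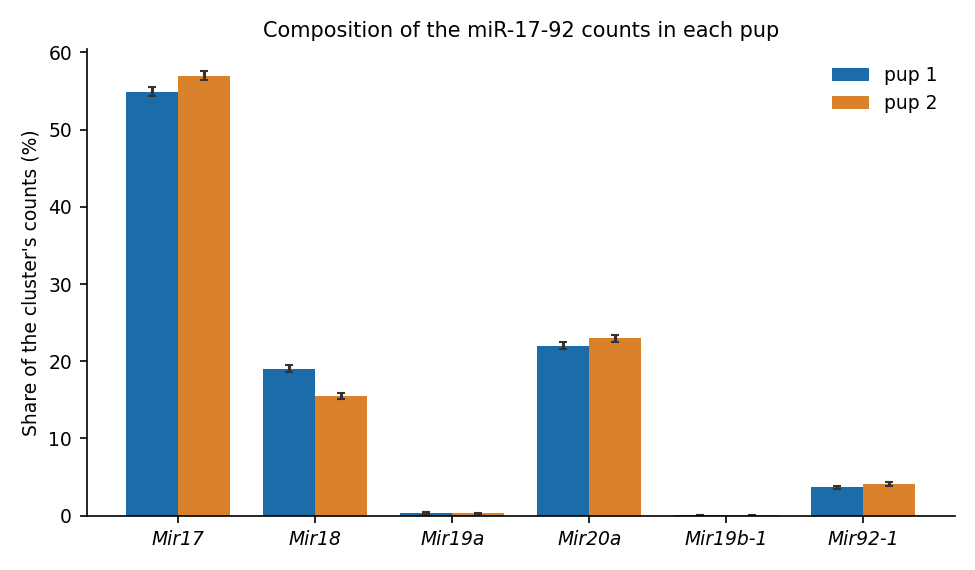
Share of the summed miR-17-92 counts held by each gene (percent, bars from 0) in pup 1 and pup 2, with exact 95% binomial intervals. Mir18 holds 19.0% in pup 1 and 15.5% in pup 2, whereas Mir17, Mir20a and Mir92-1 hold larger shares in pup 2.

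Between the pups, Mir17, Mir20a and Mir92-1 were higher in pup 2 and Mir18 was lower. An exact binomial test, two-sided and conditioned on the library totals, was run with Benjamini-Hochberg adjustment over all 413 genes with at least 10 counts summed. The test compares 2 libraries and covers counting error only. It called 4 of the 6 members, 3 higher and 1 lower in pup 2, while it called 40.9% of all tested genes, 25.7% higher and 15.3% lower. The median log2 ratio (pup 2 over pup 1) was 0.10 over the 6 members and 0.04 over all tested genes.

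Mir17 was 1.07-fold higher in pup 2 (log2 ratio 0.10, adjusted exact binomial p = 2.3e-09). Mir20a was 1.08-fold higher (log2 ratio 0.10, adjusted exact binomial p = 7.5e-05) and Mir92-1 1.15-fold higher (log2 ratio 0.20, adjusted exact binomial p = 0.0021). Mir18 was 1.19-fold higher in pup 1 (log2 ratio -0.25, adjusted exact binomial p = 2.3e-18). Set beside 88 detected genes of the same class of abundance, whose median distance of the log2 ratio from 0 was 0.13, Mir17 and Mir20a lay closer to 0 than the median and Mir18 further. Of these genes 55 lay at least as far from 0 as Mir17, 51 as far as Mir20a and 20 as far as Mir18, each count including the gene itself. Mir92-1 also lay further out than the median of its class, 0.16, with 36 of 88 genes at least as far.

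Mir19a (log2 ratio -0.07, adjusted exact binomial p = 0.84) and Mir19b-1 (log2 ratio 0.59, adjusted exact binomial p = 0.35) were not called. Mir19b-1 had the widest ratio of the 6, resting on 15 and 26 counts, and 25 of the 88 genes in its class lay at least as far from 0. The SD of the log2 ratio over the 6 members was 0.28, against a median of 0.24 (range 0.17 to 0.41) in 7 other groups of neighbouring miRNA genes that are described below. By this SD, members of this transcript were about as uneven between the pups as those other neighbours, as a description and without a test. The SD includes the wide ratio of Mir19b-1, which rests on few counts, and none was taken without that gene.

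**Figure D3:**
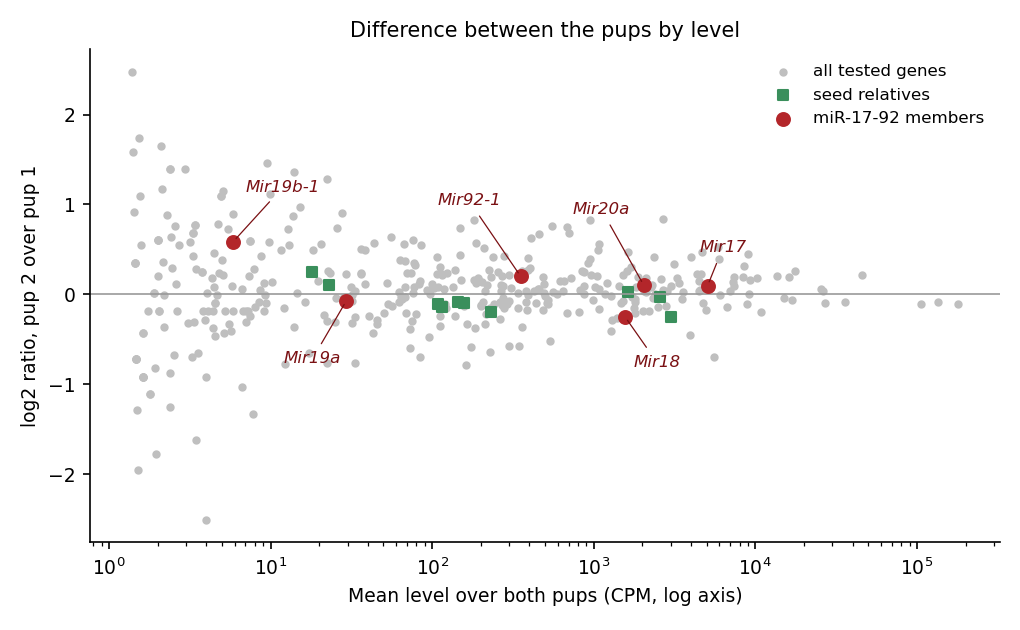
Log2 ratio of pup 2 over pup 1 against mean level in CPM (log axis), 1 point per tested gene, with the 6 miR-17-92 members in red and the 10 tested seed relatives as green squares. Mir17, Mir20a, Mir92-1 and Mir19b-1 lie above 0, Mir18 and Mir19a below, all within the range of grey points at like level.

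The lowest members were set beside the sequences that other hairpins hold, because reads that fitted several places are not in the gene counts. Such reads made up 35.5% ± 0.15 (SD, n = 2) of each library and cannot be given to a gene here. The exact mature sequences of Mir17, Mir18, Mir19a and Mir20a occurred in no other hairpin of the 1005 in RefSeq. That of miR-19b-3p also occurred in Mir19b-2, and that of miR-92a-3p also in Mir92-2, both in the paralog cluster miR-106a-363 on chromosome X. The hairpins are shown with the longest stretch each shares with its copy in capitals.
Mir19b-1 (chr14:115044305-115044391, plus strand): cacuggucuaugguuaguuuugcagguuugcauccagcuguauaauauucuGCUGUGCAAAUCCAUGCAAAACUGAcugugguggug
Mir19b-2 (chrX:52741983-52742066, minus strand): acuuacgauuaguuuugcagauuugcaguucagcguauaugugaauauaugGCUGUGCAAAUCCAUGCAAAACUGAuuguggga
Mir92-1 (chr14:115044427-115044506, plus strand): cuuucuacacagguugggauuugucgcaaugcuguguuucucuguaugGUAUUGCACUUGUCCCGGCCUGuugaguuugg
Mir92-2 (chrX:52741838-52741928, minus strand): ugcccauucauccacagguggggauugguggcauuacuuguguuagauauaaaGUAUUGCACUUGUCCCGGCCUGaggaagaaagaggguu
The stretch is 25 bases long for the Mir19b pair and 22 bases for the Mir92 pair. In Mir19b-1 it covers bases 52 to 76 of the hairpin, and the mature 3p miRNA bases 54 to 76. In Mir92-1 it covers bases 49 to 70 and the mature 3p miRNA bases 50 to 70. In both hairpins the whole mature 3p sequence thus lies inside the shared stretch, which ends on its last base. A read of exactly that sequence has at least 2 places in the genome, while the 5p arms of both genes were found in no other hairpin.

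The counts of Mir19b-1 and Mir92-1 are therefore counts of uniquely placed reads and not levels of miR-19b-3p or miR-92a-3p. The folds against them, the sum of the cluster and the shares of its members carry the same limit. Mir19a had no such copy. Its longest stretch shared with another hairpin was 13 bases, as for Mir17, and its mean of 29.4 CPM lay 172-fold below that of Mir17. Among the 4 members with no shared mature arm, the span from highest to lowest was this 172-fold, against 862-fold over all 6. Over the measured genes with mature sequences in RefSeq, 273 of 831 genes (32.9%) with no shared arm were detected, at a median of 215 CPM. Of 50 genes with some arms shared, the class of Mir19b-1 and Mir92-1, 39 were detected (78.0%) at a median of 103 CPM. Of 35 genes with all arms shared, 8 were detected (22.9%) at a median of 171 CPM. These are rates over different genes and do not test what sharing does to a count. The whole genome was not searched for further copies, and how far placement of reads sets these levels was not tested.

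Genes elsewhere in the genome carry the same seeds, and 12 of them were measured as seed relatives, of which 10 were detected. The relatives summed to 8002 CPM ± 424 (SD, n = 2), against 9058 CPM ± 189 for the cluster. They include the paralog clusters miR-106b-25 on chromosome 5, which summed to 5797 CPM ± 422, and miR-106a-363 on chromosome X, at 422 CPM ± 17.0. Between the pups 2 of the 10 detected relatives were called, both lower in pup 2, beside 15.3% of all tested genes in that direction: Mir106b (log2 ratio -0.25, adjusted exact binomial p = 7.5e-35) and Mir25 (log2 ratio -0.20, adjusted exact binomial p = 0.016). The other 8 had log2 ratios from -0.14 to 0.25.

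In the AAAGUGC group, a seed known for lowering Cdkn1a, Mir17 and Mir20a stood beside Mir106b, with 10449 counts in pup 1 and 9982 in pup 2 (2988 CPM ± 369), and Mir93, with 8360 and 9357 counts (2578 CPM ± 30.5). Mir106a (115 CPM ± 8.01) and Mir20b (109 CPM ± 5.41), of the X-linked cluster, were far lower, and Mir6383, a further gene with this seed, had 0 counts in both pups. The 7 genes summed to 12895 CPM ± 68.3, of which the cluster's Mir17 and Mir20a held 53.0% in pup 1 and 57.2% in pup 2. Mir106a resembles Mir17 closely, as miR-17-5p differs from miR-106a-5p at 1 position (U10A), and Mir17 lay far above it in both pups.

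The miR-18 seed group rested almost wholly on the cluster: Mir18 held 99% of its counts in pup 1 and 98.6% in pup 2, with Mir18b at 53 and 72 counts (18.1 CPM ± 2.26). Counts of the miR-19 seed group were low throughout, with Mir19b-2 at 4 and 5 counts (1.30 CPM ± 0.086) and all 3 genes summing to 36.6 CPM ± 0.77. Most of that sum was Mir19a. Mir19b-1 and Mir19b-2 count uniquely placed reads only, and both hold miR-19b-3p. The level of this guide, and so of the whole group, is therefore not known here.

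In uniquely placed counts, the highest gene of the AUUGCAC group, to which miR-25 and miR-92 belong, lay outside the cluster. Mir92b had 5219 counts in pup 1 and 6049 in pup 2, 1638 CPM ± 21.1 (SD, n = 2). Mir92-1 held 13.0% of the group's counts in pup 1 and 14.7% in pup 2, above Mir25 (232 CPM ± 22.8), Mir363 (157 CPM ± 7.11), Mir32 (145 CPM ± 5.83) and Mir92-2 (22.9 CPM ± 1.20). Mir367, of the pluripotency cluster that also holds the Mir302 genes, had 0 counts, for which the exact 95% intervals reach 1.15 CPM in pup 1 and 1.01 CPM in pup 2 (3 counts, the limit drawn for a count of 0, are 0.933 and 0.820 CPM). The share of Mir92-1 counts uniquely placed reads only, as does that of Mir92-2, whereas no other hairpin holds a mature arm of Mir92b. Which miRNA of this group was most abundant is therefore not known here.

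**Figure D4:**
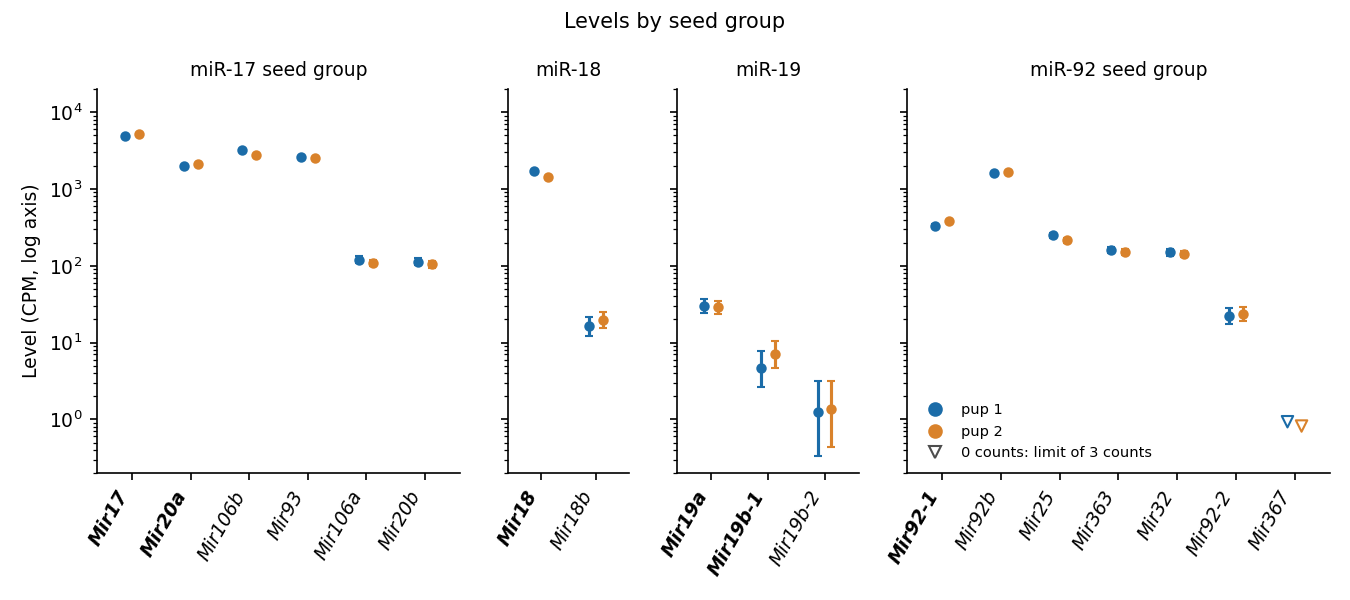
Own-strand level in CPM (log axis) of the miR-17-92 members (bold names) and their seed relatives, grouped by guide seed, with 1 point per pup and exact 95% counting intervals; open triangles mark 0 counts, drawn at the limit of 3 counts. Mir17 is the highest gene of the miR-17 group, whereas Mir92b at 1638 CPM stands above Mir92-1 at 353 CPM in the miR-92 group.

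To place the inequality within the cluster, neighbouring miRNA genes on the same strand, with gaps of at most 10 kb, were grouped over the genome. Besides miR-17-92, 7 groups had at least 4 detected genes. Their highest gene lay between 5.90-fold and 1619-fold above their lowest, with a median of 305-fold, and miR-17-92 at 862-fold was the fourth of the 8 groups. The 172-fold span among its members with no shared mature arm lies below that median, but the other groups were not limited to such genes. Within these 7 groups 91.6% of pairs of genes lay further apart than the spread between the pups, against all 15 pairs in miR-17-92. Mir17 held 56.0% of the cluster's summed mean level, and the highest gene of the other groups held 36.2% to 86.0%. Large differences between neighbouring miRNA genes were thus common in these libraries, and the span of miR-17-92 lay within their range. The X-linked paralog miR-106a-363 had a narrower span, 8.67-fold over 5 detected genes (Mir363 over Mir18b). Its Mir19b-2, with 4 and 5 counts, was not among them, whereas Mir19b-1 passed the minimum and is the lowest gene of miR-17-92. The spans of these paralogs are therefore not over like genes. Every span counts detected genes only, so the minimum of 10 counts bounds the lowest gene of each group.

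**Figure D5:**
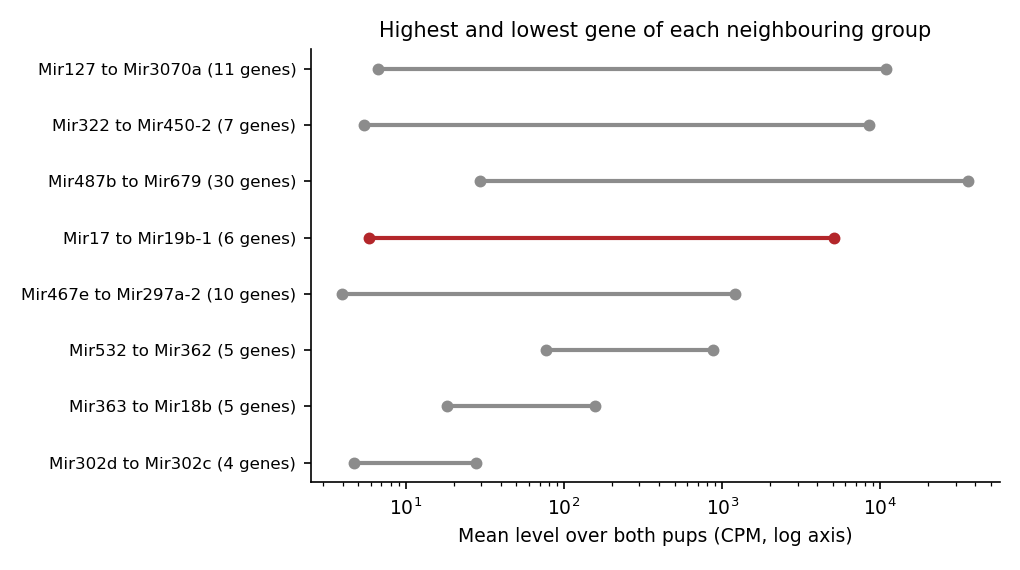
Mean level in CPM (log axis) of the highest and the lowest detected gene in each of 8 groups of neighbouring miRNA genes, joined by a line, with the number of detected genes in parentheses. The miR-17-92 line (red) runs from 5.88 to 5069 CPM, longer than 4 of the other 7 and shorter than 3.

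In the order of all levels over the 2 libraries, each member stood beside genes that did not differ from it beyond the pooled spread. Likeness here is only the distance in mean log2(CPM + 1). Because the genes directly above and below each member were taken, a small distance follows from the choice and is not a result. Mir17 stood between Mir196b (5576 CPM ± 1863) and Mir615 (4979 CPM ± 435), both miRNA genes of the Hox clusters. Mir20a stood between Mir298 (2056 CPM ± 36.9) and Mir872 (2030 CPM ± 185), and Mir18 between Mir132 (1602 CPM ± 205), a miRNA induced by neuronal activity, and Mir300 (1523 CPM ± 51.5). Mir92-1 stood between Mir3099 (359 CPM ± 63.0) and Mir496a (344 CPM ± 95). Mir19a stood between Mir7j (31.6 CPM ± 1.22) and Mir679 (29.4 CPM ± 3.28), and Mir19b-1 between Mir344c (6.68 CPM ± 0.21) and Mir1930 (5.85 CPM ± 2.55). The most abundant gene of the libraries, Mir10b, stood at 180672 CPM ± 9672.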

How the data were processed

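Small RNA libraries of 2 pups were analysed from the authors' deposited tables of raw, whole-number counts, which list each miRNA gene on either strand, its own strand and the opposite strand. The accompanying deposited text names mm10 and GENCODE M4. Which aligner and counter made the tables is not given in the sources used here. Own-strand counts were used. Rows that name no gene stayed out of totals and held 35.5% (multimapping), 10.9% (unmapped) and 2.89% (no miRNA gene on that strand) of the reads.

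Symbols and positions came from GENCODE M21 (also mm10). Identifiers matched for 1894 of 1973 genes. Log2 levels had 1 CPM added, and log2 ratios 0.5 counts. The pooled SDs used 4 classes of abundance over 352 detected genes. Sequence sharing was searched among RefSeq hairpins. The scripts were tested on simulated data. Precision is limited by 2 libraries.

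The members and lists were chosen with earlier results of these data known. Genes named are the members, their seed relatives, the genes directly above and below each member in level, the top gene and the leading markers. Mir6383, the neural genes besides Mir137 and the leading genes of neighbouring groups were named after their values were seen. The alternatives tried were scaling by TMM or DESeq2, other totals, strands, minimums, pseudocounts, spreads and gaps, and leaving out each pup. Counts per base were added after seeing the data. Software was Python 3.11.15 (scipy 1.17.1, numpy 2.4.6, pandas 2.3.3, matplotlib 3.10.9) and R 4.3.3 (DESeq2 1.42.0, edgeR 4.0.16).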

Additional observations from a re-analysis of the deposited data

How the results depend on the processing

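The cluster's summed level, 9058 CPM, was 8864 CPM with either-strand counts, 11055 CPM without the most abundant gene in the total and 4588 CPM with all reads as the total, each by construction of the total. The span from Mir17 to the lowest member fell from 862-fold to 172-fold without Mir19b-1 and Mir92-1, whose mature arms another hairpin holds, by construction since Mir19b-1 is the lowest; it was 1050-fold without pup 2 and 738-fold without pup 1. The 15 pairs beyond the spread became 14 in 4 alternatives, each time by the loss of Mir20a over Mir18. The pup test called the same number of members, 4, under the 6 alternatives tried, with TMM and DESeq2 scaling moving every log2 ratio by about -0.04. Scaling cannot change a ratio or share within the cluster, and leaving out 1 of 2 pups moves a mean by less than its SD, so neither is evidence of stability. No paired analysis was possible because the labels give 1 group. Depth limits Mir19b-1 most, with 15 and 26 counts.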
